A study of Mus musculus with 18 samples.

Results

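Genes of the major histocompatibility complex class II (MHC-II) pathway were followed through colon RNA-seq libraries of germ-free mice, in which 18 libraries form 6 groups of 3. The set was fixed by gene symbol: H2-Aa, H2-Ab1, H2-Eb1, H2-DMa, H2-DMb1, H2-DMb2, Cd74 and Ciita, which are 8 of the 45777 genes in the deposited count table. All 8 passed the low-count filter, which left 18848 genes for testing. The mice were male, on the C57BL/6J strain, and 8 weeks old, and every group, controls included, was kept germ-free in sterile isolators. The genotypes were wild type (WT), Lao1-/- (LAO1KO) and Lao1-/- Il4i1-/- double knockout (DKO), which lack the L-amino acid oxidase genes named. Each genotype was given either sterile water or 2.5% dextran sulfate sodium (DSS, a polymer that injures the colonic epithelium) in the drinking water for 24 h before the colon was taken. The 3 libraries of a group are described as biological replicates, and how the mutant alleles were made is not given in the sources used here.

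MHC-II molecules carry peptides from engulfed material to the cell surface and show them to CD4 T cells. The alpha and beta chains pair in the endoplasmic reticulum around the invariant chain, encoded by Cd74, which steers them to endosomes; there proteases cut the invariant chain down to a remnant and the H2-DM dimer swaps this remnant for a peptide. Ciita encodes the transactivator that is recruited to class II promoters by factors bound at their X and Y boxes, and interferon gamma is its best-known inducer outside professional antigen-presenting cells. In the colon, dendritic cells, macrophages and the B cells of lymphoid follicles carry most MHC-II, and epithelial cells can gain it during inflammation.

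The promoter sequences are shown because these genes are known as a co-regulated set. A further reason is that H2-DMb1 and H2-DMb2 gave unlike correlations with B-cell markers (below), a difference that was not tested. RefSeq promoter windows of GRCm38.p6 run from 250 bases before to 50 bases after a gene's start, and 5 of the 8 genes had one (H2-Aa, H2-Eb1, H2-DMa, H2-DMb1 and H2-DMb2). Both strands were searched for the X-box core ACNGATG, for the Y-box core ATTGG, and for an X core followed by a Y core with 15 to 35 bases between them on 1 strand; the cores share no position in a match. The X core occurred in 9.85% of all 32851 promoter windows, the Y core in 37.4% and the ordered pair in 0.174%, which is 57 windows. Of the 5 genes with a window, H2-Eb1, H2-DMb1 and H2-DMb2 held the ordered pair, and so did H2-Eb2, a neighbouring beta chain gene. The 57 windows belonged to 55 genes, 9 of them H2 genes. H2-D1, H2-M3, H2-Q4, H2-Q6 and H2-Q7 were among these, so the arrangement was not particular to the class II genes. In the stretches below, all on the plus strand of GRCm38.p6, the capitals mark the X core and then the Y core.
H2-Eb1, chr17:34305769-34305820: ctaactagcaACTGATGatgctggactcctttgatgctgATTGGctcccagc
H2-DMb1, chr17:34153090-34153142: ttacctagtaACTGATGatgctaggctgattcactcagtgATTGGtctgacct
H2-DMb2, chr17:34145119-34145171: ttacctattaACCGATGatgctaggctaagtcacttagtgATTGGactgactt
H2-Eb2, chr17:34325536-34325587: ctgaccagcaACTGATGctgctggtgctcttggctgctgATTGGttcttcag
The X core begins 88, 91, 120 and 129 bases before the RefSeq start in H2-Eb1, H2-DMb1, H2-DMb2 and H2-Eb2. The GENCODE starts given below lie further upstream for H2-DMb2 (34143307) and H2-DMb1 (34153072), so their stretches fall inside those gene spans. Between the cores lie 22 bases in the 2 H2-Eb genes against 23 in the 2 H2-DMb genes. The X core of H2-DMb2 reads ACCGATG and the other 3 read ACTGATG. H2-Aa held both cores but not in that arrangement, and the 2 windows of H2-DMa held no X core. A match describes letters in a window, not a bound factor.

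Library totals ran from 26003174 to 36553193 counts. The epithelial marker Epcam was at 1174 to 3065 CPM (read counts relative to library size, scaled by edgeR's TMM factors). The colon surface marker Car1 was at 5035 to 11315 CPM, and both matched the tissue label. Other colon surface markers were less even between libraries, with Car4 at 234 to 824 CPM, Slc26a3 at 76.7 to 734 CPM and Aqp8 at 0.113 to 50.4 CPM. Mitochondrial mRNAs took 6.89 to 9.08% of counts in WT water libraries and 26.1 to 44.9% in WT DSS libraries, against 8.67 to 20.7% in the knockout water libraries and 14.3 to 23.6% in the knockout DSS libraries. Lao1 was at 0 to 4 counts in the 6 WT libraries and 0 to 10 in the 12 knockout libraries, so it could not check the Lao1-/- label; Il4i1 and its overlapping model Il4i1b together gave 0 counts in 5 of 6 DKO libraries, 12 in the other one, and 12 to 66 in the WT and LAO1KO libraries.

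All 8 genes were detected in every library. Per kilobase of the median protein-coding transcript in GENCODE vM21, the mean level over 18 libraries was 67.3 CPM for Cd74, 53.6 for H2-Ab1, 53.4 for H2-Aa and 29.1 for H2-Eb1. The peptide-exchange genes were lower, at 5.84 CPM per kilobase for H2-DMa, 3.25 for H2-DMb1 and 1.86 for H2-DMb2, and the regulator Ciita was lowest at 0.920. H2-Ab1 exceeded H2-Aa in only 10 of 18 libraries, so these neighbours were not separated, while H2-Eb1 exceeded H2-DMa in 18 of 18 with ranges that did not overlap. Each other neighbour in this order was the higher in 15 to 18 of 18 libraries although the ranges overlapped. Per kilobase of all exonic bases the order began Cd74 (53.9), H2-Eb1 (21.2), H2-Ab1 (18.6) and H2-Aa (13.7), so the order of the 3 chain genes depends on the length used, and the order of the other 5 genes does not.

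In GENCODE vM21 (GRCm38), 6 of the genes lie within the MHC on chromosome 17: H2-DMa at 34119541 to 34139101, H2-DMb2 at 34143307 to 34151555, H2-DMb1 at 34153072 to 34160230, H2-Ab1 at 34257689 to 34269419, H2-Aa at 34282744 to 34287823 on the minus strand, and H2-Eb1 at 34305867 to 34316674. Ciita lies on chromosome 16 (10480059 to 10528418) and Cd74 on chromosome 18 (60803848 to 60812652). The transcripts of H2-DMb1 and H2-DMb2 were identical at 94.6% of 1219 aligned bases with a longest identical run of 221 bases, longer than the 150-base reads, so how reads were divided between them is uncertain. H2-DMa overlaps Brd2 on the opposite strand, Ciita overlaps Dexi and H2-Eb1 overlaps an antisense model, and whether counting used the strand is not given in the sources used here.

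The first comparison asked what 24 h of DSS did to these genes. In WT colon, 1 of the 8 passed the test: H2-DMa, the alpha chain of the peptide-exchange dimer, rose 1.67-fold. None passed in LAO1KO or DKO colon, or on average over the genotypes. The 3 classical chain genes, Cd74 and Ciita did not pass after adjustment over all tested genes. Before adjustment, H2-Aa in WT had a p of 0.0452 in the edgeR test.

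H2-DMa stood at 8.13, 5.23 and 6.87 CPM in the WT water libraries A, B and C and at 12.7, 12.0 and 8.93 CPM in the WT DSS libraries. These ranges did not overlap, as was so for 33.8% of all tested genes in this comparison, and the means were 6.74 ± 1.46 and 11.2 ± 2.02 CPM (SD, n = 3 each). The log2 fold change was 0.74 ± 0.21 (SE), with an adjusted p of 0.0304 in edgeR's quasi-likelihood test with Benjamini-Hochberg adjustment over all 18848 genes. That is 1 called gene of 8 where 12.9% of all tested genes were called, so the share among the class II genes was near the background. The call was lost when any of 3 libraries was left out (WT water B, log2 0.59, adjusted p = 0.136; WT DSS A, 0.61, 0.109; WT DSS B, 0.65, 0.0854) and when only the 6 WT libraries were fitted (0.72, 0.0873). It was also lost with the B-cell marker score as a covariate (0.64, 0.0778). The summed B-cell markers ran from 4.05 to 11.7 CPM in WT water and from 15.1 to 26.7 CPM in WT DSS, with 0 of 10 called. Mitochondrial mRNAs had a median log2 difference of 2.64 here (13 of 13 called). Medians were -0.49 for smooth muscle, -0.44 for endothelial, -0.25 for epithelial and -1.35 for adipocyte markers, with 0 called. They were -0.08 for dendritic-cell and 0.06 for macrophage markers, also with 0 called. The part of these lists in the result was not tested beyond the B-cell fit. Brd2, which overlaps H2-DMa on the other strand, ran the other way, at 153 to 156 CPM in WT water and 126 to 143 CPM in WT DSS. In this bulk tissue, more cells of a type and more RNA per cell cannot be told apart.

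In LAO1KO colon H2-DMa was at 8.03, 7.39 and 9.80 CPM on water and 10.6, 11.9 and 8.83 CPM on DSS, a log2 difference of 0.31 ± 0.21 (SE, edgeR adjusted p = 0.485). In DKO colon it was already at 14.1, 9.39 and 9.47 CPM on water and stood at 11.0, 10.8 and 8.90 CPM on DSS, a log2 difference of -0.10 ± 0.21 (adjusted p = 0.917). The groups overlapped in both genotypes. Averaged over the genotypes the log2 difference was 0.32 ± 0.12 (adjusted p = 0.0817), and 0 of the 8 genes were called where 15.9% of all genes were; H2-DMa was called there under upper-quartile scaling (0.37, 0.0475) or without DKO water library A (0.39, 0.0404). Within LAO1KO 0 of 8 were called against 0.196% of all genes, and within DKO 0 of 8 against 0.0159%.

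**Figure D1:**
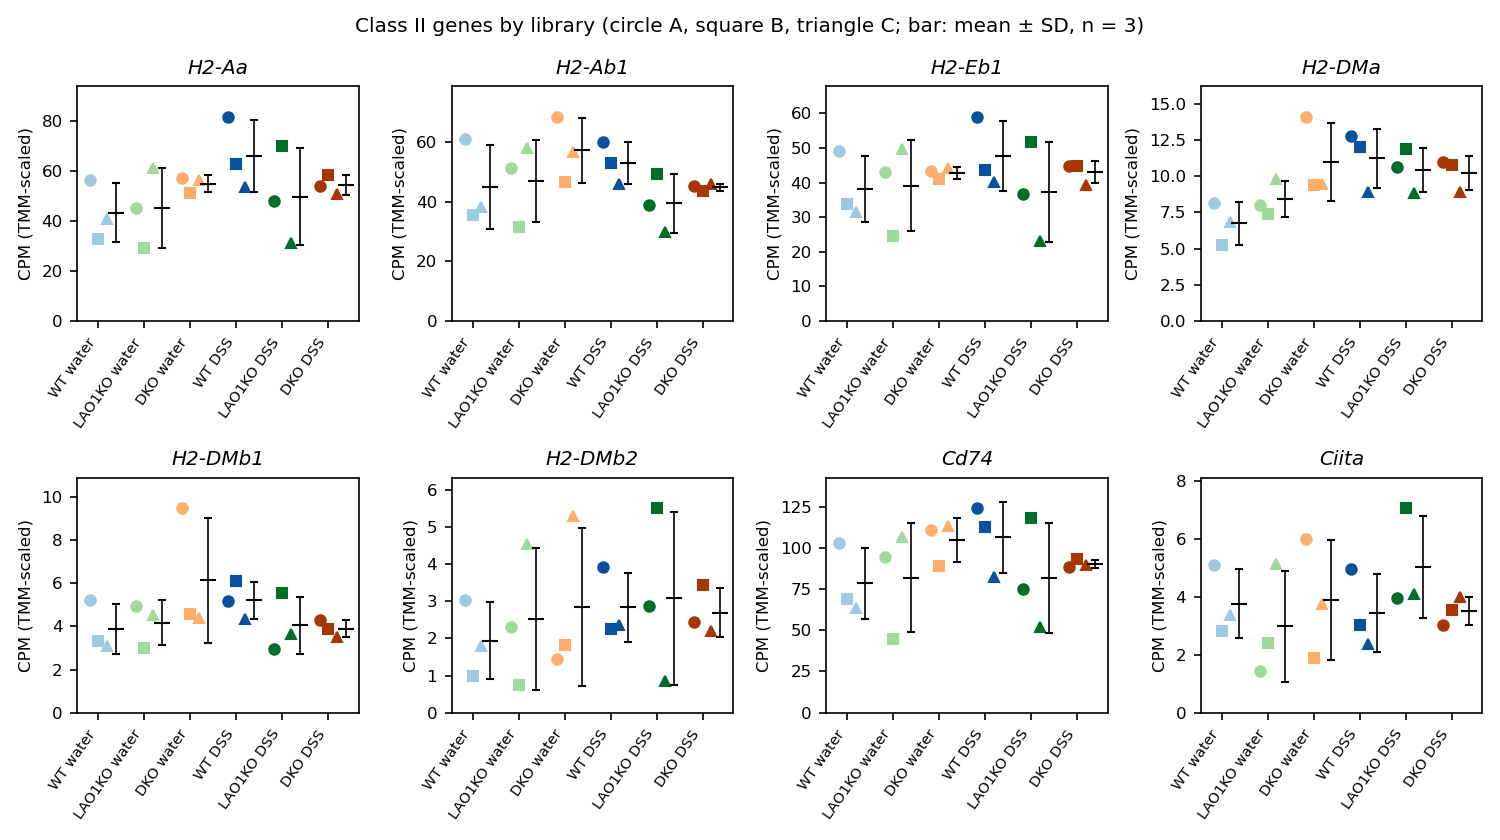
CPM of each class II gene in the 18 libraries, on linear axes from 0, with the 3 libraries of each group as points and their mean and SD as bars. H2-DMa in WT lies at 5.23 to 8.13 CPM on water and 8.93 to 12.7 CPM on DSS, whereas the points of H2-DMb2 spread widely within groups.

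The classical alpha and beta chains form the I-A molecule from H2-Aa and H2-Ab1, and H2-Eb1 is the beta chain of I-E. H2-Aa was at 56.3, 32.9 and 40.8 CPM in WT water and 81.5, 62.6 and 53.6 CPM in WT DSS. The DSS libraries sat mostly higher, but the lowest of them fell below the highest water library. The log2 difference of 0.61 ± 0.28 (SE) had an adjusted p of 0.159, with a 95% interval of 1.01 to 2.29-fold before adjustment. H2-Ab1 was at 61.0, 35.4 and 38.2 CPM in WT water and 60.04, 52.9 and 45.8 CPM in WT DSS, overlapping throughout (log2 0.24 ± 0.24, adjusted p = 0.540). H2-Eb1 was at 49.1, 33.7 and 31.6 CPM against 59.0, 43.6 and 40.1 CPM (log2 0.32 ± 0.27, adjusted p = 0.460). C57BL/6 mice are known to lack a working H2-Ea gene and therefore the I-E molecule; the pseudogene row H2-Ea-ps was at 0 counts in 18 of 18 libraries (upper limit 3 counts per library).

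In the knockouts none of the chain genes was called. H2-Aa differed by log2 0.14 ± 0.28 in LAO1KO and -0.01 ± 0.28 in DKO, and H2-Eb1 by -0.07 ± 0.27 and 0.00 ± 0.27 (edgeR adjusted p of at least 0.839). H2-Ab1 in DKO was at 68.4, 46.7 and 56.7 CPM on water and 45.2, 43.5 and 45.8 CPM on DSS. Every DSS library was below every water library there (18.8% of all genes did not overlap between these groups), and the log2 difference of -0.35 ± 0.24 had an adjusted p of 0.664.

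Cd74, the invariant chain, was the most abundant of the set. It was at 103, 68.7 and 63.6 CPM in WT water and 124, 113 and 82.3 CPM in WT DSS, which overlap (log2 0.44 ± 0.30, adjusted p = 0.357). In LAO1KO it ran from 44.7 to 107 CPM on water and from 52.1 to 118 CPM on DSS, and in DKO from 89.1 to 113 and from 88.4 to 93.2 CPM. On average over the genotypes its DSS-to-water fold was 1.05, with a 95% interval of 0.814 to 1.36. Ciita, the transactivator, was at 5.10, 2.81 and 3.38 CPM in WT water and 4.95, 3.02 and 2.35 CPM in WT DSS (log2 -0.12 ± 0.45, adjusted p = 0.889). It was at 1.419, 2.40 and 5.11 CPM in LAO1KO water and 3.94, 7.05 and 4.09 CPM in LAO1KO DSS, again overlapping (log2 0.76 ± 0.45, adjusted p = 0.423).

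The beta chains of the peptide-exchange dimer were the least abundant chains among the 8 genes. H2-DMb1 was at 5.24, 3.32 and 3.09 CPM in WT water and 5.18, 6.09 and 4.35 CPM in WT DSS (log2 0.43 ± 0.32, adjusted p = 0.397). In DKO it was at 9.49, 4.58 and 4.37 CPM on water and 4.3003, 3.90 and 3.49 CPM on DSS. Those groups did not overlap, but by a narrow gap, and the log2 difference of -0.66 ± 0.32 had an adjusted p of 0.531. H2-DMb2 ran from 0.988 to 3.04 CPM in WT water and from 2.25 to 3.92 CPM in WT DSS (log2 0.55 ± 0.68, adjusted p = 0.627). With the counts of H2-DMb1 and H2-DMb2 summed, the WT difference was log2 0.47 ± 0.35 (adjusted p = 0.392), and the sum was not called in any comparison. Of the 24 pairings of a gene with a genotype, 3 had DSS and water groups that did not overlap, namely H2-DMa in WT and H2-Ab1 and H2-DMb1 in DKO. Such a separation was found for 33.8% of all tested genes in WT, for 19.3% in LAO1KO and for 18.8% in DKO, so 3 of 24 was not above the background.

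**Figure D2:**
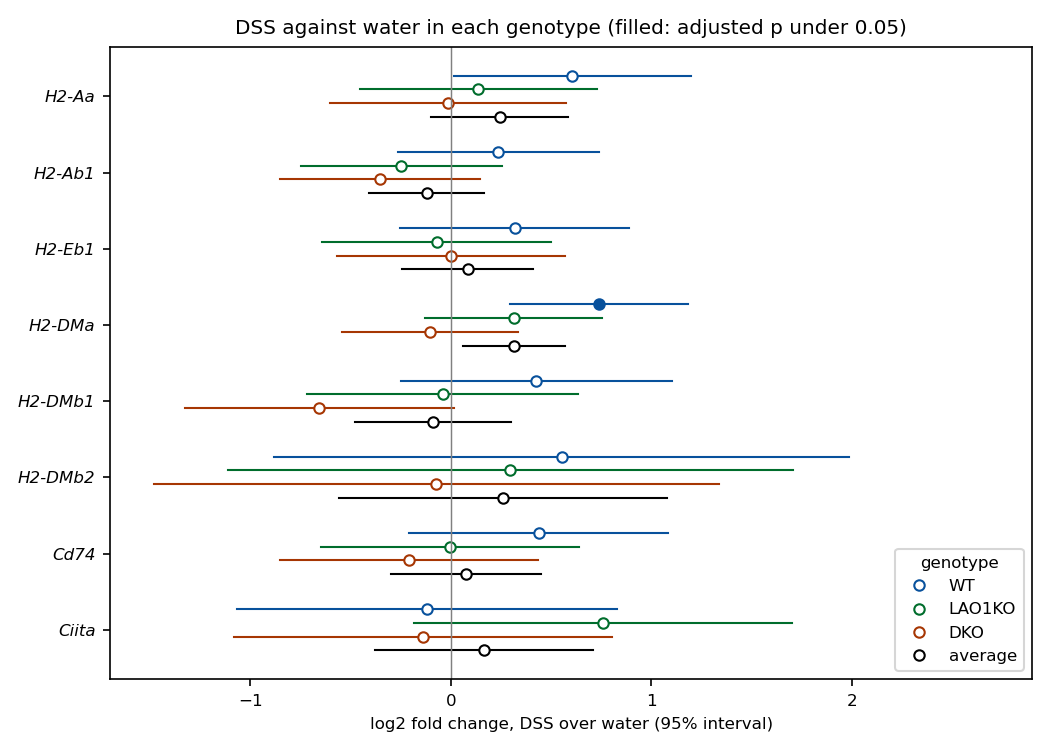
Log2 fold change of DSS over water for each class II gene within WT, LAO1KO and DKO and averaged over them, with 95% intervals from the edgeR fit; filled points have an adjusted p under 0.05. The only filled point is H2-DMa in WT at 0.74, and the widest intervals are those of H2-DMb2.

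As a list, the 8 genes had a median log2 difference of 0.43 in WT, 0.07 in LAO1KO and -0.12 in DKO, beside medians over all tested genes of 0.02, 0.02 and 0.02. A positive difference was found for 7, 4 and 1 of the 8 genes, respectively. Levels of these genes were correlated across the libraries (r up to 0.95, for H2-Eb1 with Cd74), so their signs are not independent. Whether the DSS response itself differed between genotypes was tested with interaction terms. For DKO against WT the 8 estimates were all negative, with a median of -0.62 beside 0.00 for all genes, and 0 of 8 were called where 0.0584% of all genes were. The lowest adjusted p was that of H2-DMa (log2 -0.84 ± 0.30, adjusted p = 0.204), followed by H2-DMb1 (-1.08 ± 0.45, 0.264). For LAO1KO against WT the median was -0.43, 7 of the 8 estimates were negative, Ciita being the exception, and 0 of 8 were called where the share of all genes was 0.00%; 3005 of all genes had an unadjusted p under 0.05 in that edgeR test. The B-cell markers had medians of -1.41 for DKO and -0.95 for LAO1KO with 0 of 10 called in either. Medians for DKO and LAO1KO were -1.03 and -0.65 for 6 T-cell markers, 0.81 and 0.51 for 6 smooth muscle markers (6 of 6 positive in each) and -2.32 and -1.88 for 13 mitochondrial mRNAs, also with 0 called, although all 13 mitochondrial mRNAs had an unadjusted p under 0.05 in each. Adipocyte markers had medians of 3.63 and 3.15 (5 of 5 positive in each) and endothelial markers 0.54 and 0.70 (4 of 4 in each), again with 0 called. Dendritic-cell markers had medians of -0.04 and -0.04, macrophage markers -0.01 and 0.06, and colon surface markers -0.24 and -0.69, also with 0 called. The part of these in the class II values was not tested.

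The second comparison asked whether loss of the oxidases moved the class II genes. On water, DKO libraries had higher fitted values than WT for 8 of 8 genes with a median log2 difference of 0.38, beside 0.01 for all genes, but 0 of 8 passed where 0.621% of all genes were called. H2-DMa came closest, at 14.1, 9.39 and 9.47 CPM in DKO against 8.13, 5.23 and 6.87 CPM in WT, groups that did not overlap, like 21.5% of all genes (log2 0.70 ± 0.21, edgeR adjusted p = 0.124); DESeq2 called it (0.67, adjusted p = 0.0444). H2-DMb1 followed (log2 0.66 ± 0.32, adjusted p = 0.295), with DKO water library A far above the other 2. These differences share the WT water libraries with the WT response to DSS above, so a low level in those 3 libraries enters both. The signs of the 8 genes are not independent here either. B-cell markers had a median log2 difference of 1.34 in the same comparison, with 10 of 10 positive and 0 of 10 called, and were high in a single DKO water library, C, at 45.8 CPM summed, against 3.94 and 2.66 CPM in A and B. T-cell markers had a median of 1.05 (6 of 6 positive), mitochondrial mRNAs 1.12 (13 of 13) and smooth muscle markers -0.68 (0 of 6), with 0 called in each. Adipocyte markers had a median of -3.18 (0 of 5 positive) and endothelial markers -0.36 (0 of 4), also with 0 called. Macrophage markers had a median of -0.33 (2 of 9 positive), dendritic-cell markers 0.17 (5 of 8) and colon surface markers -0.66 (2 of 4), with 0 called in each. DKO water A, the library with the highest H2-DMa and H2-DMb1, had the lowest smooth muscle score of all 18 libraries. The part of these in the result was not tested.

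In the remaining genotype comparisons none of the 8 genes was called. LAO1KO against WT on water had a median log2 difference of 0.06 (0 of 8 called, 0.0531% of all genes), and on DSS -0.36 (0 of 8, 0.0849%). DKO against WT on DSS had a median of -0.19 (0 of 8, 0.255%), and DKO against LAO1KO averaged over both drinks 0.19 (0 of 8, 0.239%). In all, 1 of 88 tests of a class II gene was called and 6 (6.82%) had an unadjusted p under 0.05, against 15.7% of the 207328 tests over all genes. The intervals show how much the libraries could have missed. Over the 8 genes, the 95% bounds on the fold ran from 0.410 to 3.47 for LAO1KO against WT on water and from 0.536 to 3.91 for DKO against WT on water, with H2-DMb2 setting the upper end of both and Ciita the lower. A p above the threshold therefore does not show equal levels.

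The spread between replicates differed among the genes. The pooled within-group SD on the log2 scale was 0.26 for H2-DMa, 0.33 for H2-Ab1, 0.38 for H2-Eb1, 0.39 for H2-Aa, 0.40 for H2-DMb1 and 0.42 for Cd74, while it was 0.61 for Ciita and 0.93 for H2-DMb2. The SD of H2-DMb2 was larger than that of 94.8% of the tested genes. Its level was 2.30, 0.739 and 4.54 CPM in LAO1KO water, 1.44, 1.81 and 5.28 CPM in DKO water and 2.88, 5.51 and 0.858 CPM in LAO1KO DSS. The high libraries were LAO1KO water C, DKO water C and LAO1KO DSS B, and the low ones LAO1KO water B and LAO1KO DSS C. The 10 summed B-cell markers, among them Ms4a1, Cd79a, Cd79b, Cd22, Pax5 and Cr2, were 42.4, 45.8 and 53.7 CPM in those 3 high libraries and 1.68 CPM in LAO1KO DSS C. LAO1KO water B, at 5.70 CPM, was not among the lowest.

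Across the 18 libraries, log2 CPM of H2-DMb2 followed the mean log2 CPM of the B-cell markers (Pearson's r = 0.868, Spearman's rho = 0.880, two-sided permutation p = 1e-05 for each, the smallest that 100000 permutations can give, adjusted p = 0.00024 over 24 relations of 8 genes with 3 cell-type lists). Without the 2 libraries farthest from the median score, r was 0.881; it was 0.796 within the 9 water libraries, 0.972 within the 9 DSS libraries and 0.884 after group means were removed. H2-DMb1, its near-identical neighbour, gave r = 0.113 and rho = 0.168 (permutation p = 0.661 and 0.505, adjusted p = 0.835 and 0.670) and 0.135 with group means removed. The correlation of H2-DMb1 with H2-DMb2 was 0.27 across the same libraries. The difference between these coefficients was not tested, and how reads were divided between the 2 genes is uncertain.

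**Figure D3:**
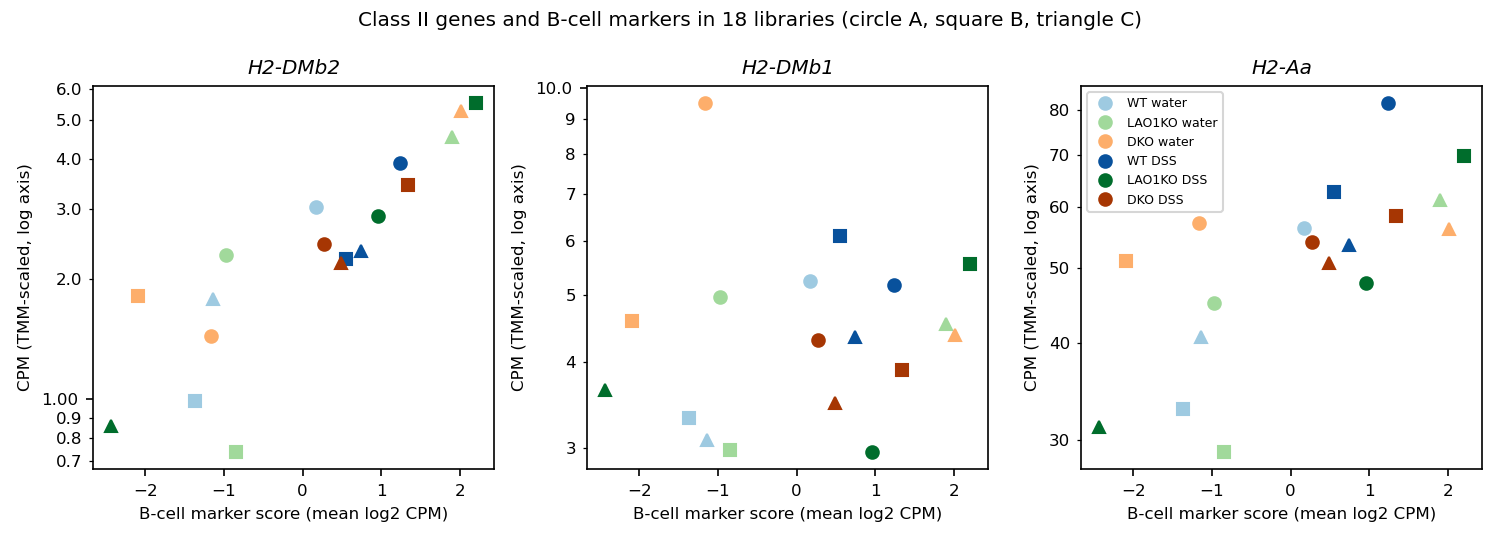
CPM of H2-DMb2, H2-DMb1 and H2-Aa (log axes) against the mean log2 CPM of 10 B-cell markers, with each of the 18 libraries as a point. H2-DMb2 climbs along the marker score (r = 0.868), whereas H2-DMb1 shows no such order (r = 0.113).

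Among the other genes, H2-Aa (r = 0.704, rho = 0.670, adjusted permutation p = 0.00514 and 0.0184), H2-Eb1 (0.662, 0.653; 0.00669, 0.0184) and Cd74 (0.610, 0.595; 0.0189, 0.0316) also followed the B-cell score. H2-Ab1, H2-DMa and Ciita had r from 0.441 to 0.457 with adjusted p from 0.115 to 0.122. Against 8 dendritic-cell markers, r was 0.811 for H2-Eb1, 0.805 for H2-Ab1, 0.735 for Cd74, 0.690 for H2-Aa and 0.668 for H2-DMb2, with rho from 0.589 to 0.775 and adjusted permutation p of r from 0.00048 to 0.00669. Those relations leaned on the extreme libraries: without the 2 farthest, r was 0.541, 0.637, 0.448, 0.395 and 0.391 in the same order, although within groups (means removed) it was 0.925, 0.839, 0.821, 0.920 and 0.851. For H2-DMb1, r with the dendritic score was 0.470 (adjusted permutation p = 0.115) and rho 0.552 (0.0481), and H2-DMa and Ciita had r of 0.314 and 0.269 (0.347 and 0.445) and rho of 0.414 and 0.410 (0.170 for both). Against 9 macrophage markers no gene had an r beyond -0.253, and the lowest adjusted permutation p was 0.463 for r and 0.324 for rho. The cell-type scores share libraries and depth with the class II genes, and no cell type was isolated.

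Among themselves the chain genes and Cd74 moved closely across the 18 libraries, given here as descriptions. The highest coefficients were 0.95 for H2-Eb1 with Cd74, 0.94 for H2-Aa with H2-Eb1, 0.93 for H2-Aa with Cd74 and 0.91 for H2-Ab1 with Cd74. The lowest was 0.27, for H2-DMb1 with H2-DMb2. Ciita had r from 0.32 to 0.47 against the other 7, and from 0.43 to 0.70 with group means removed. Ciita had 40 to 192 counts per library, against 1275 to 3706 for Cd74. H2-DMb2 had 21 to 150 counts and an r of 0.84 with H2-Aa. Of 15171 genes with a mean of at least 1 CPM, those most like the mean of the 8 were Rnase6 (r = 0.876), Napsa (0.824), Cd52 (0.821), H2-Ob (0.820), Coro1a (0.813), Cxcl13 (0.810), Itgax (0.779), Cd53 (0.771), Tmem131l (0.768) and Lcp1 (0.765). With group means removed, Itgax (0.880), an integrin of dendritic cells, came first, and Wdfy4 (0.824) and Trpt1 (0.821) replaced Cd53 and Lcp1 among the 10.

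Ratios of counts within a library were compared for all 28 pairs after the levels had been seen, with an exact two-sided permutation test of water and DSS labels within genotypes (8000 arrangements, smallest possible p 0.00025). The ratio of H2-Aa to H2-Ab1, the 2 chains of I-A, was 0.922, 0.927 and 1.07 in WT water and 1.36, 1.18 and 1.17 in WT DSS. It was 0.883, 0.924 and 1.06 in LAO1KO water and 1.23, 1.41 and 1.04 in LAO1KO DSS. In DKO it was 0.836, 1.09 and 0.992 on water and 1.19, 1.34 and 1.11 on DSS. Every WT and DKO DSS library exceeded all water libraries of its genotype, and 8 of 9 DSS libraries exceeded all 9 water libraries, LAO1KO DSS C being the exception.

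The log2 ratio of H2-Aa to H2-Ab1 was higher on DSS by 0.35 in WT, 0.36 in LAO1KO and 0.32 in DKO, on average 0.34 (exact permutation p = 0.00075, adjusted p = 0.0175 over 28 pairs), and stayed past the threshold in all 18 fits that left out 1 library, with an adjusted p of at most 0.0385. The ratio is free of library scaling, and shows unequal change of the 2 genes without saying which of them moved. How often pairs of other genes shift as much was not tested.

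After the ratio had been seen, it was set against the B-cell score and the mitochondrial share across the 18 libraries. Against the B-cell score the log2 ratio had r = 0.567 and rho = 0.579 (permutation p = 0.0148 and 0.0127, the same after adjustment over 2 relations), r = 0.686 without the 2 farthest libraries and 0.521 with group means removed. Within treatments r was 0.852 in the 9 DSS libraries and 0.172 in the 9 water libraries. The lowest DSS ratio was in LAO1KO DSS C, with 1.68 CPM of summed B-cell markers, and the highest in LAO1KO DSS B, with 53.7 CPM. On water, the ratio was 1.06 in LAO1KO water C, with 42.4 CPM of these markers, and 0.992 in DKO water C, with 45.8 CPM. The highest water ratio, 1.09, was in DKO water B, with 2.66 CPM. Against the mitochondrial percent the log2 ratio had r = 0.565 and rho = 0.639 (permutation p = 0.0114 and 0.00513, adjusted 0.0148 and 0.0103) and r = 0.645 without the 2 farthest libraries. It was -0.02 within the water libraries, 0.14 within the DSS libraries and 0.08 with group means removed. These p values, like those for the B-cell score, were computed across all 18 libraries, water and DSS together. The ratio and the mitochondrial share both differed between water and DSS, so that difference alone can give a low p. The part of the B-cell score or the mitochondrial share in the ratio difference was not tested.

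The ratio of H2-Ab1 to H2-DMa was lower on DSS. It was 7.51, 6.78 and 5.57 in WT water and 4.71, 4.40 and 5.13 in WT DSS, and it ran from 4.24 to 6.36 against 3.38 to 4.16 in LAO1KO and from 4.85 to 5.98 against 4.03 to 5.14 in DKO. WT and LAO1KO groups did not overlap and DKO groups did. The log2 difference was -0.42 on average (exact permutation p = 0.00125, adjusted p = 0.0175) and stayed past the threshold in all 18 leave-outs. H2-Aa to H2-Eb1 (0.16, adjusted p = 0.0473) and H2-DMa to H2-DMb1 (0.38, adjusted p = 0.0473) also passed, but lost the threshold in 14 and 15 of the 18 leave-outs. The WT, LAO1KO and DKO differences behind the first of these were 0.29, 0.21 and -0.01. The other 24 pairs did not pass. Ratios were not computed for pairs drawn from all tested genes, so no background share stands beside these results.

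**Figure D4:**
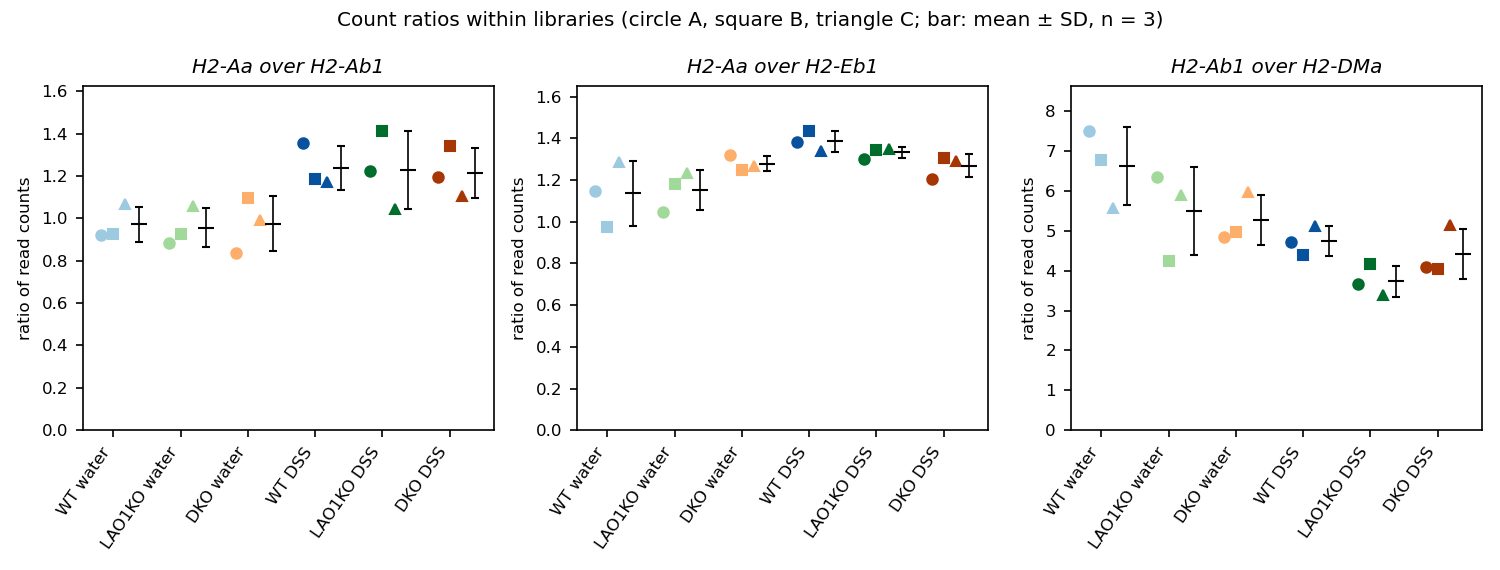
Ratios of read counts within each library for H2-Aa over H2-Ab1, H2-Aa over H2-Eb1 and H2-Ab1 over H2-DMa, on linear axes from 0, with group means and SDs as bars. H2-Aa over H2-Ab1 lies at 0.836 to 1.09 on water and 1.04 to 1.41 on DSS.

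The rest of the pathway was read from gene lists. Interferon gamma itself, the classical inducer of Ciita, was near absent: Ifng had 2 counts in WT DSS B and 0 counts in 17 of 18 libraries, with an upper limit of 3 counts in each. Of the other 12 genes of interferon gamma signalling and Ciita control, 2 fell on average with DSS and 0 rose: the kinase gene Jak2 (log2 -0.35 ± 0.08, edgeR adjusted p = 0.00919) and the receptor gene Ifngr1 (-0.22 ± 0.07, 0.0422). Irf1, an interferon-induced factor that acts on a Ciita promoter, had a log2 difference of 0.01 ± 0.08 (adjusted p = 0.929). The median of the 12 was -0.03 beside 0.03 for all genes, and 2 called of 12 is near the 15.9% called among all genes.

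Among 7 genes for factors that bind class II promoters, Rfx5, an X-box factor, rose on average with DSS. It ran from 11.0 to 16.03 CPM in the 9 water libraries and from 15.05 to 22.6 CPM in the 9 DSS libraries, which overlap slightly (log2 0.38 ± 0.09, adjusted p = 0.00881). Nfya, a subunit of the Y-box factor NF-Y, fell in WT, from 31.0, 36.4 and 27.4 CPM to 26.1, 22.8 and 18.9 CPM (log2 -0.48 ± 0.14, adjusted p = 0.0290), and no other gene of the list was called in either comparison. Against the background this is 1 of 7 in each, where 15.9% and 12.9% of all genes were called.

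None of the 8 endosomal processing genes was called in any comparison, where the shares of all genes were 15.9% for DSS on average, 12.9% for DSS in WT and at most 0.621% in the others. Ctss, the protease that makes the last cuts in the invariant chain, was at 278, 205 and 353 CPM in WT water and 361, 313 and 584 CPM in WT DSS (log2 0.59 ± 0.22, adjusted p = 0.0781). It ran from 430 to 499 CPM in LAO1KO water and from 267 to 362 CPM in LAO1KO DSS, and the interaction with WT was -1.20 on the log2 scale (adjusted p = 0.136). Neither Cd83, which protects surface MHC-II from turnover, nor Cd86, the co-stimulatory ligand, was called in any comparison.

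Further class II genes were lowly expressed and variable. H2-Oa and H2-Ob encode the H2-O dimer, an inhibitor of H2-DM that is typical of B cells, and H2-Eb2 is a further beta chain gene whose X and Y cores are printed above. H2-Ob ran from 0.368 CPM in LAO1KO DSS C to 7.01 CPM in LAO1KO DSS B, the libraries with the lowest and highest B-cell score. H2-Oa was likewise lowest (0.204 CPM) and highest (1.98 CPM) in these 2 libraries, and H2-Eb2 was highest in LAO1KO DSS B (2.83 CPM) and at 0 counts in DKO water B (upper limit 3 counts). None of the 3 was called in any comparison, and their pooled within-group SDs were 1.02 for H2-Oa, 1.33 for H2-Ob and 1.62 for H2-Eb2 on the log2 scale.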

How the data were processed

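The deposited table holds read counts per gene. Per the submitters' processing notes, the builds were GRCm38 and mm10 and the tools StringTie 2.1.3b, HISAT2 2.1.0, R 4.3.2, DESeq2 1.42.1, Trimmomatic 0.38 and FastQC 0.11.7; per the labels' protocols, libraries were TruSeq Stranded mRNA with paired 150-base reads. The counting settings (strand, multi-mapping, overlaps) are not given in the sources used here. Groups come from the sample labels. The counts were fitted in edgeR 4.0.16 (R 4.3.3) with 1 mean per group over all 18 libraries, its default expression filter and TMM scaling; 11 contrasts were tested by quasi-likelihood and adjusted by Benjamini-Hochberg over 18848 genes, with calls at 0.05. Intervals are 95% and unadjusted. The scripts were tested on simulated data.

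Levels are TMM-scaled CPM, log2 values for scores and correlations have a prior count of 2, and ratios added 0.5 to each count for the test. Marker scores are mean log2 CPM. The genes and lists were chosen with earlier results of these data known. The 8 genes, Ifng, Irf1, Rfx5 and Ctss were always named, with any listed gene called in a comparison under discussion and the 10 most alike genes by correlation. March family genes and H2-Ea were not analysed here, and some single listed genes are not reported here. Alternatives were DESeq2 1.42.0, voom in limma 3.58.1, no filter, other scalings, a replicate block, a B-cell covariate, fits of only the groups compared and leaving out each library. Letters A, B and C were checked for pairing by correlating deviations from group means: 13 of 45 same-letter pairs exceeded 0.1 (range -0.30 to 0.32), including all 3 between WT water and WT DSS (0.19, 0.17 and 0.22) but not all of any LAO1KO or DKO pairing of water with DSS. Different-letter pairs were not examined, so these values do not show that the letters are true pairs, and the labels give no shared source.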

Additional observations from a re-analysis of the deposited data

How the results depend on the processing

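Of 87 counts of called class II genes under other settings, 83 equalled those reported. DSS in WT fell from 1 to 0 with the B-cell covariate and when only the groups compared were fitted, and ranged from 0 to 1 over leave-outs (0 without WT water B, WT DSS A or WT DSS B). The average DSS comparison rose from 0 to 1 with upper-quartile scaling and ranged from 0 to 1 over leave-outs (1 without DKO water A), and DKO against WT on water rose from 0 to 1 with DESeq2; each time the gene was H2-DMa. The replicate block left 1 called gene in WT (H2-DMa, adjusted p = 0.0235) and 0 in every other comparison, so it changed no call. Genes called over the whole table moved more, in WT from 2428 to 777 without WT water B and 1083 when only WT libraries were fitted, and for DKO against WT on water from 117 to 783 with DESeq2. The H2-Aa to H2-Eb1 log2 ratio ranged from 0.13 to 0.20 over leave-outs and passed only without WT water C, LAO1KO water B, DKO water A or DKO DSS A. That of H2-DMa to H2-DMb1 ranged from 0.31 to 0.44 and passed only without WT water C, LAO1KO water B or LAO1KO DSS B. No difference changed direction with a call; the causes were not tested. Depth limits H2-DMb2 (21 to 150 counts) and Ciita most.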
